A study of Homo sapiens with 54 samples.

Results

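The BCL2 family apoptosis regulators described here are 10 of the 27470 genes of the series. They are the survival proteins MCL1, BCL2L1 (BCL-XL), BCL2 and BCL2A1 (BFL1), the BH3-only proteins PMAIP1 (NOXA), BBC3 (PUMA), BCL2L11 (BIM) and BIK, and the effectors BAX and BAK1. RNA was measured by 3′ sequencing in 18 conditions of 3 libraries each, 9 in SUM1315 cells (BRCA1 mutant) and 9 in MDA-MB-468 cells (BRCA1 wild type), both triple negative breast cancer lines. Parental SUM1315 cells were untreated or received 8 µM olaparib, a PARP inhibitor, with or without cisplatin (CDDP) at 2 or 4 µM, or CDDP alone. Parental MDA-MB-468 cells received 3 µM olaparib and CDDP at 1 or 2.5 µM in the same layout. The series design has 2 µM for the latter dose and some labels have mM, while the paper has the doses used here. Olaparib-resistant (OlaR) cells were kept in 25 µM olaparib (SUM1315) or 15 µM (MDA-MB-468), alone or with either CDDP dose of their line. OlaR cells therefore differ from olaparib-treated parental cells in selection, olaparib dose and length of exposure (overnight in parental cells) at once, and each line has 1 OlaR population.

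Survival proteins of this family bind and hold BAX and BAK1 and the activating BH3-only proteins, which keeps the outer mitochondrial membrane intact. BH3-only proteins occupy the groove of the survival proteins or activate the effectors, after which BAX and BAK1 form pores and cytochrome c is released. PMAIP1 binds mainly MCL1 and BCL2A1, while BBC3 and BCL2L11 bind all survival proteins.

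Values are adjusted read counts, that is, reads that the authors adjusted with edgeR to a common library size of 5585170. Whole reads were recovered from them by reversing that adjustment, and 100% of the 1483380 values were returned within 1e-06. Parental libraries held 4977284 to 7540920 reads for SUM1315 and 5574767 to 9268162 for MDA-MB-468 cells. OlaR libraries were shallower, with 3446613 to 4665505 and 2070301 to 4676284 reads, and depth was not tested. Each line was fitted by limma over its 27 libraries on log2 of the adjusted read count plus 1, with Benjamini-Hochberg adjustment over the 13133 (SUM1315) or 13012 (MDA-MB-468) genes that reached 10 in at least 3 libraries. A gene passed, and is said to have changed, at an adjusted p at or under 0.05. Log2 fold changes (FC) are given with their standard error (SE). Where the change of a member did not pass under another setting, other than a fold limit of 2, or with 1 library left out, this follows it, with the log2 FC and adjusted p of that fit. Library values are listed for replicates 1, 2 and 3 in that order, and OlaR without a dose stands for OlaR cells in olaparib only. Nothing in the labels says that replicates were separate cultures, so the p-values may measure technical spread. In bulk samples, fewer cells of a kind and less RNA per cell cannot be told apart, and 3′ counts cannot separate the splice forms of a gene.

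Markers of the labelled cell type were read first. In MDA-MB-468 libraries EPCAM lay at 2631 to 3793, CDH1 at 654 to 1045 and VIM at 7.99 to 53.8. SUM1315 libraries held 7929 to 13246 for VIM, with EPCAM at 0 to 4.61 and CDH1 at 0 to 3.90. Among 4 immune genes the highest values of PTPRC were 6.97 (SUM1315) and 1.74 (MDA-MB-468) and those of CD68 15.7 and 8.74. The immune sum was 12.4 to 15.3 in untreated and 0 to 5.72 in olaparib-treated SUM1315 libraries. With CDDP alone in these cells it was 5.80 to 10.3 (2 µM) and 4.62 to 7.17 (4 µM). Of the 3 receptors, PGR reached 3.09 and 0.897, ERBB2 lay at 15.9 to 63.3 and 5.33 to 59.2, and ESR1 at 0 to 25.6 and 24.9 to 221. Their sum was 64.8 to 67.4 in olaparib-treated parental, 224 to 232 in OlaR and 133 to 151 in OlaR 2.5 µM CDDP MDA-MB-468 libraries, led by ESR1, and 30.8 to 62.1 (parental with olaparib) and 56.4 to 60.4 (OlaR) in SUM1315 libraries, led by ERBB2. The epithelial or basal sum over 9 genes was 2838 to 2998 in untreated, 1905 to 1921 in olaparib-treated, 4443 to 4706 in OlaR and 2855 to 3061 in OlaR 4 µM CDDP SUM1315 libraries, led by KRT17. With CDDP alone in parental SUM1315 cells it was 1864 to 1948 (2 µM) and 1986 to 2147 (4 µM). In MDA-MB-468 libraries it was 7884 to 8607 with olaparib in parental and 11756 to 12245 in OlaR cells. Over all libraries of this line KRT5 lay at 247 to 3760 and KRT17 at 168 to 836, so the genes of this sum need not rise together. The mesenchymal sum over VIM and CDH2 was 13322 to 13773 in olaparib-treated parental and 9036 to 9725 in OlaR SUM1315 libraries. The stromal sum over 3 collagen genes was 622 to 714 and 134 to 209 in these, led by COL1A1, and the endothelial sum was 134 to 164 and 44.95 to 71.7. In untreated SUM1315 libraries the stromal sum was 855 to 929, at 2 µM CDDP 701 to 839 and at 4 µM CDDP 651 to 716. In parental MDA-MB-468 libraries the mesenchymal sum was 31.0 to 40.7 with olaparib and 7.99 to 15.8 with olaparib + 2.5 µM CDDP. OlaR MDA-MB-468 libraries with olaparib only gave 13.8 to 27.5 for it. The lines can express these genes themselves, no other cell type is assigned, and the part of these shifts in the member results was not tested.

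The 3 untreated SUM1315 libraries stood apart from the rest of their line. Over all genes tested their Pearson correlations within the condition were 0.969 to 0.975, and their highest with another condition 0.937 to 0.955. For the other 24 SUM1315 libraries these ranges were 0.964 to 0.977 and 0.963 to 0.973. For the 3 untreated MDA-MB-468 libraries they were 0.979 to 0.980 and 0.972 to 0.974, and for the other 24 of that line 0.975 to 0.983 and 0.975 to 0.979, so untreated libraries were again lowest with other conditions, by a smaller gap. The comparisons of olaparib, lower-dose CDDP and higher-dose CDDP with untreated cells share these 3 libraries within a line, so their results are not independent. The differences of CDDP effects with minus without olaparib, and between lines without olaparib, rest on them too.

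On GRCh38, MCL1 lies on chromosome 1, 150560895 to 150579738, minus strand, and BIK on chromosome 22, 43110750 to 43129712, plus strand. Exons of BCL2L1 share 1735 bases with ABALON on the other strand, and those of BCL2L11 share 727 bases with MIR4435-2HG on the other strand. MCL1 exons share 328 bases with ADAMTSL4-AS1 on the same strand and 43 with ADAMTSL4 on the other. BBC3 shares 80 bases with MIR3190 and 76 with MIR3191, and BAK1 shares 91 with GGNBP1. The strand setting used to count reads is not stated, so reads in these stretches cannot be assigned to 1 of the genes.

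Promoter windows of 250 bases ending at the start site were read from RefSeq on GRCh38.p14, 5′ to 3′ on the strand of the gene, for 8 of the 10 members (MCL1 and BIK had none in the table). The windows of PMAIP1 (chr18:59899746-59899995, plus strand), BCL2A1 (chr15:79971197-79971446, minus strand), BCL2L1 (chr20:31723964-31724213, minus strand, the first of 2) and BAX (chr19:48954625-48954874, plus strand) are printed, the first 3 because their condition means spanned the widest range in SUM1315 cells among members with a window, and BAX because it was higher in OlaR cells with olaparib only than in olaparib-treated parental cells of both lines. Capitals mark matches, on either strand, to GGGCGG (GC box), CACGTG (E-box), TATAAA (the TATA box), TGACG (the core of a CRE) or TGACTCA (AP-1). Of all 35116 windows of this length, 42.6% held GGGCGG, 6.34% CACGTG, 10.7% TATAAA, 21.2% TGACG and 4.2% TGACTCA.
PMAIP1 promoter: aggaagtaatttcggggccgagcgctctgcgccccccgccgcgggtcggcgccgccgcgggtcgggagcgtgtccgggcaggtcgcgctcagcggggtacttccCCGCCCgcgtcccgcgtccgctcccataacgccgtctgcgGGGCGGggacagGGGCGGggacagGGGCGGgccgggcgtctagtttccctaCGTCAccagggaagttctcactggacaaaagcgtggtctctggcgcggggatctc
BCL2A1 promoter: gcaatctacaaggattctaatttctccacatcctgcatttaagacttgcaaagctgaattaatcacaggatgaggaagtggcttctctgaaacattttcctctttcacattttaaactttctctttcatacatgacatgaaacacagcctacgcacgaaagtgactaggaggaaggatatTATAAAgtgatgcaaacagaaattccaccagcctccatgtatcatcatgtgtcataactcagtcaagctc
BCL2L1 promoter: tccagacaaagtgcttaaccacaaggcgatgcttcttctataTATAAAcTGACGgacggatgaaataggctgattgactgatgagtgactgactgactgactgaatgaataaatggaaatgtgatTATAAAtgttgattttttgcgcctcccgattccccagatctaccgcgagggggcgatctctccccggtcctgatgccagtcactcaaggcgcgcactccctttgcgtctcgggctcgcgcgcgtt
BAX promoter: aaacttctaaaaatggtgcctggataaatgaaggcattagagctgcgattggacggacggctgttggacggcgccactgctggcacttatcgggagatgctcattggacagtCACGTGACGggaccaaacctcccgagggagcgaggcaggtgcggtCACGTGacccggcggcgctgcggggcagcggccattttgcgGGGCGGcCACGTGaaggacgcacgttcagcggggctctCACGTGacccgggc

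The PMAIP1 window held 4 matches to GGGCGG and 1 to TGACG and was 72.8% G or C, against a median of 58% over all windows. The BCL2A1 window held 1 TATAAA and was 38.8% G or C. The BCL2L1 window held 2 TATAAA and 1 TGACG. The BAX window held 4 CACGTG and 1 GGGCGG, and its TGACG overlapped 1 of the CACGTG matches. Among the 8 members with a window, GGGCGG was found in 4, TGACG in 4, CACGTG in 2, TATAAA in 2 and TGACTCA in 1. A match shows no binding.

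**Figure D1:**
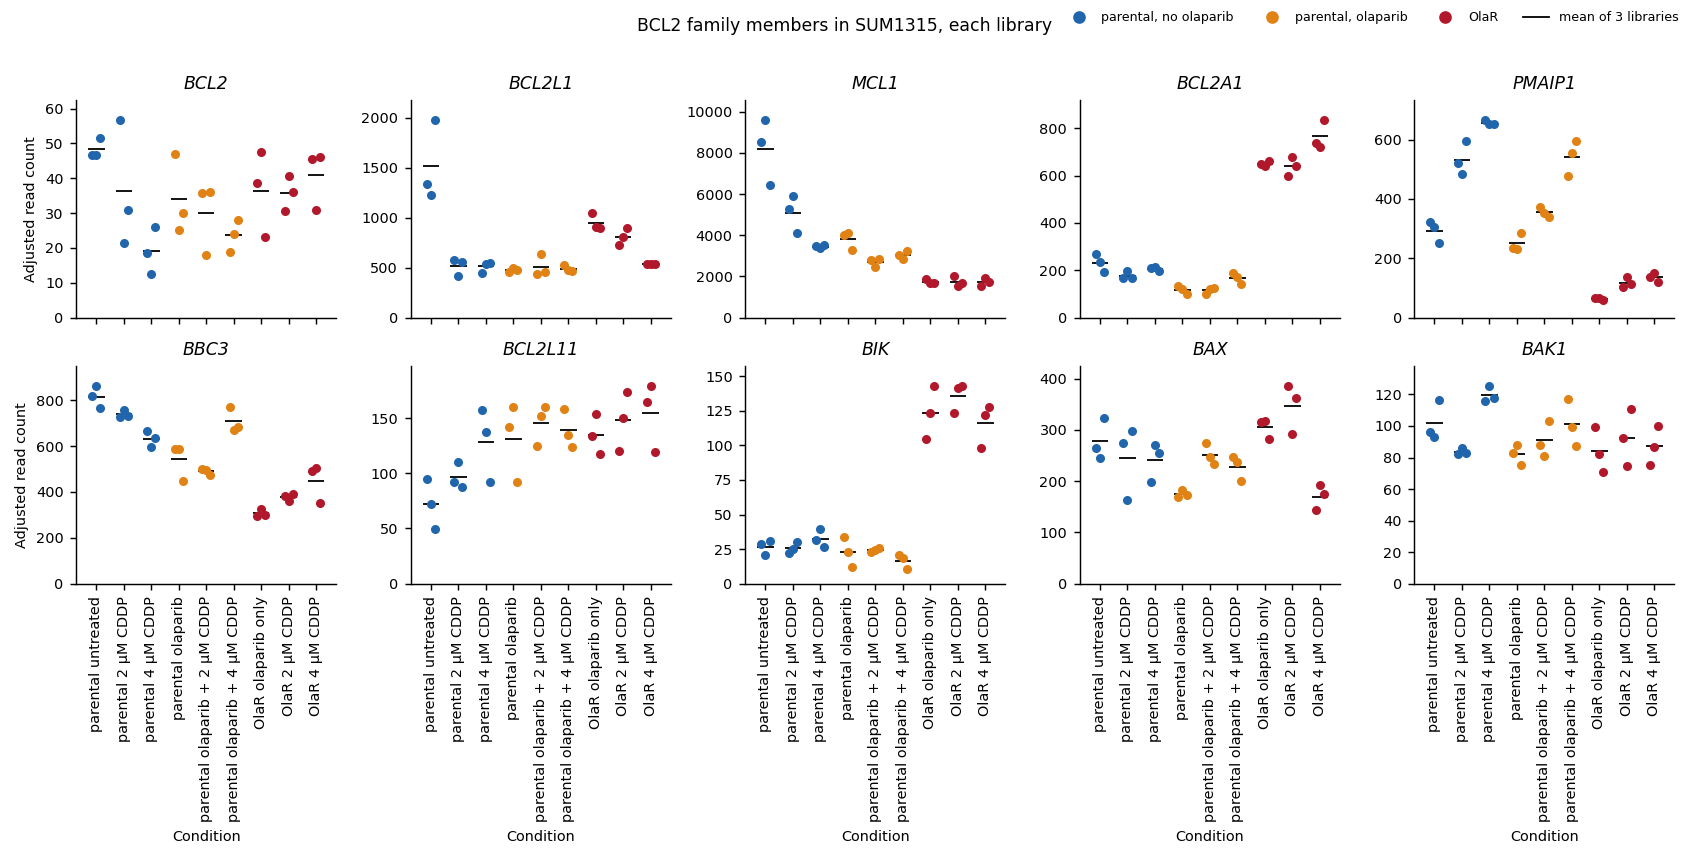
Adjusted read counts of the 10 BCL2 family members in SUM1315 cells. Each dot is 1 library, and each line is the mean of 3 libraries. Colours separate parental cells without olaparib, parental cells with olaparib and OlaR cells.

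MCL1 is the short-lived survival protein held by PMAIP1. In parental SUM1315 cells MCL1 was 8521, 9594 and 6429.7 untreated, 5279, 5929.99 and 4091 at 2 µM CDDP, and 3483, 3365 and 3517 at 4 µM CDDP. Under olaparib, parental MCL1 values were 4024, 4105 and 3299 alone, 2822, 2438 and 2835 with 2 µM CDDP, and 3056, 2858 and 3219 with 4 µM CDDP. OlaR SUM1315 values of MCL1 were 1868, 1695 and 1707 with olaparib only, 2024, 1531 and 1689.5 at 2 µM CDDP, and 1554, 1914 and 1713 at 4 µM CDDP. All 9 OlaR libraries lay below all 18 parental libraries, and the 3 untreated libraries lay above all others. MCL1 means in SUM1315 ran, from high to low, untreated, 2 µM CDDP, olaparib, 4 µM CDDP, olaparib + 4 µM CDDP, olaparib + 2 µM CDDP, OlaR, OlaR 2 µM CDDP and OlaR 4 µM CDDP. Neighbours in this MCL1 order overlapped, except for gaps just before 2 µM CDDP, olaparib + 4 µM CDDP, olaparib + 2 µM CDDP and OlaR. MCL1 fell with olaparib (log2 FC -1.09, SE 0.13, adjusted p 2.65e-08). It fell at 2 µM CDDP against untreated (log2 FC -0.68, SE 0.13, adjusted p 7.46e-05). At 4 µM CDDP against untreated MCL1 also fell (log2 FC -1.22, SE 0.13, adjusted p 1.54e-09). With 2 µM CDDP added to olaparib MCL1 fell again (log2 FC -0.49, SE 0.13, adjusted p 0.0231). The MCL1 call was absent with no filter on low values (-0.49, adjusted p 0.0592) and in a fit of only the groups compared (-0.49, adjusted p 0.0666). MCL1 also did not pass when replicate 2 (-0.42, adjusted p 0.134) of parental olaparib + 2 µM CDDP, or replicate 1 (-0.45, adjusted p 0.108) or replicate 2 (-0.44, adjusted p 0.125) of parental olaparib was left out. In OlaR cells it was lower than in olaparib-treated parental cells (log2 FC -1.11, SE 0.13, adjusted p 9.46e-09). On the log2 scale of the fit its condition means spanned 2.23.

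MCL1 in parental MDA-MB-468 cells was 4054, 4323 and 3919 untreated, 2964, 3069 and 3081 at 1 µM CDDP, and 3843, 3783 and 3849 at 2.5 µM CDDP. With olaparib the MDA-MB-468 values of MCL1 were 3190.4, 3123 and 3575 alone, 3135, 3041 and 3189 with 1 µM CDDP, and 3431, 3156 and 3046 with 2.5 µM CDDP. In OlaR MDA-MB-468 cells MCL1 was 3207, 3068 and 2846 with olaparib only, 2638, 2536 and 2651 at 1 µM CDDP, and 2946, 2761 and 2692 at 2.5 µM CDDP. Untreated libraries were highest, and the 3 OlaR libraries at 1 µM CDDP were lowest. MCL1 means in MDA-MB-468 ran, from high to low, untreated, 2.5 µM CDDP, olaparib, olaparib + 2.5 µM CDDP, olaparib + 1 µM CDDP, OlaR, 1 µM CDDP, OlaR 2.5 µM CDDP and OlaR 1 µM CDDP. Neighbours in this MCL1 order overlapped, except for gaps just before 2.5 µM CDDP, olaparib, OlaR 2.5 µM CDDP and OlaR 1 µM CDDP. MCL1 fell with 3 µM olaparib (log2 FC -0.32, SE 0.05, adjusted p 1.31e-05). It fell at 1 µM CDDP against untreated (log2 FC -0.43, SE 0.05, adjusted p 1.89e-08). MCL1 was lower when olaparib was added to 2.5 µM CDDP (log2 FC -0.25, SE 0.05, adjusted p 0.000768). In OlaR cells MCL1 fell at 1 µM CDDP (log2 FC -0.22, SE 0.05, adjusted p 0.0112). MCL1 did not pass when replicate 2 (-0.20, adjusted p 0.0639) of OlaR 1 µM CDDP, or replicate 1 (-0.18, adjusted p 0.0988) of OlaR with olaparib only was left out. At 2.5 µM CDDP against untreated it did not pass (-0.10, SE 0.05, adjusted p 0.194), nor between OlaR and olaparib-treated parental cells (-0.12, SE 0.05, adjusted p 0.0714).

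BCL2L1 encodes BCL-XL, a survival protein, and a shorter death-promoting form that gene counts do not separate. BCL2L1 in parental SUM1315 cells was 1338, 1229.7 and 1977 untreated, 572, 412 and 554 at 2 µM CDDP, and 448, 541 and 551 at 4 µM CDDP. With olaparib, BCL2L1 values were 459, 496 and 474 alone, 436, 639 and 459 with 2 µM CDDP, and 530.3, 474 and 466 with 4 µM CDDP. OlaR SUM1315 cells gave BCL2L1 values of 1042, 909 and 897 with olaparib only, 724, 804 and 901 at 2 µM CDDP, and 533, 534 and 537 at 4 µM CDDP. The 3 untreated libraries lay above all others, and the libraries of the 5 treated parental conditions overlapped. BCL2L1 means in SUM1315 ran, from high to low, untreated, OlaR, OlaR 2 µM CDDP, OlaR 4 µM CDDP, 4 µM CDDP, 2 µM CDDP, olaparib + 2 µM CDDP, olaparib + 4 µM CDDP and olaparib. Neighbours in this BCL2L1 order overlapped, except for gaps just before OlaR and OlaR 4 µM CDDP. BCL2L1 fell with olaparib (log2 FC -1.64, SE 0.14, adjusted p 9.95e-11). It fell by a similar size at 2 µM CDDP (log2 FC -1.54, SE 0.14, adjusted p 4.5e-10). At 4 µM CDDP against untreated BCL2L1 also fell (log2 FC -1.53, SE 0.14, adjusted p 2.19e-10). BCL2L1 was higher in OlaR than in olaparib-treated parental cells (log2 FC 0.99, SE 0.14, adjusted p 9.77e-07). Within OlaR cells it fell at 4 µM CDDP (log2 FC -0.82, SE 0.14, adjusted p 0.000128). Adding 4 µM CDDP to olaparib left BCL2L1 without a change that passed (0.04, SE 0.14, adjusted p 0.912).

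BCL2L1 in MDA-MB-468 cells was 124, 127 and 131 untreated, 100.3, 85.97 and 101 with olaparib and 197, 130.1 and 152 in OlaR cells with olaparib only. The 6 other conditions gave 76.03 to 142, and the 3 olaparib libraries lay below the 3 OlaR libraries without overlap. BCL2L1 was higher in OlaR than in olaparib-treated parental MDA-MB-468 cells (log2 FC 0.71, SE 0.17, adjusted p 0.000263). By limma it passed in no other comparison of this line. BCL2L1 means in MDA-MB-468 were highest for OlaR and lowest for olaparib, and all 8 pairs of conditions next in order overlapped.

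BCL2, the founding survival protein, had few reads. In parental SUM1315 cells BCL2 was 46.7, 46.6 and 51.7 untreated, 56.7, 21.4 and 30.9 at 2 µM CDDP, and 18.5, 12.6 and 25.99 at 4 µM CDDP. Parental BCL2 values under olaparib were 47.05, 25.1 and 29.98 alone, 35.9, 18.1 and 36.03 with 2 µM CDDP, and 18.9, 24.1 and 28.1 with 4 µM CDDP. The OlaR values of BCL2 were 38.6, 47.6 and 23.2 with olaparib only, 30.7, 40.7 and 36.2 at 2 µM CDDP, and 45.6, 31.02 and 45.96 at 4 µM CDDP. Untreated libraries were close together, while replicates of 2 µM CDDP spread widely and overlapped most other conditions. BCL2 means in SUM1315 ran, from high to low, untreated, OlaR 4 µM CDDP, OlaR, 2 µM CDDP, OlaR 2 µM CDDP, olaparib, olaparib + 2 µM CDDP, olaparib + 4 µM CDDP and 4 µM CDDP. Neighbours in this BCL2 order overlapped, except for a gap just before OlaR 4 µM CDDP. BCL2 fell at 4 µM CDDP against untreated, its only change in this line (log2 FC -1.35, SE 0.35, adjusted p 0.00205).

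BCL2 in parental MDA-MB-468 cells was 30.8, 43.7 and 30.2 untreated, 24.7, 18.3 and 10.9 at 1 µM CDDP, and 21.5, 24.9 and 29.999 at 2.5 µM CDDP. With olaparib, MDA-MB-468 values of BCL2 were 18.9, 21.8 and 26.1 alone, 14.4, 18.9 and 20.8 with 1 µM CDDP, and 26.9, 21.2 and 19.8 with 2.5 µM CDDP. In OlaR MDA-MB-468 cells BCL2 was 37.9, 34.3 and 27.1 with olaparib only, 37.8, 27.95 and 27.8 at 1 µM CDDP, and 12.4, 15.8 and 9.71 at 2.5 µM CDDP. Of the OlaR libraries, the 3 at 2.5 µM CDDP were lowest and did not overlap the other 6. BCL2 means in MDA-MB-468 were highest for untreated and lowest for OlaR 2.5 µM CDDP, and all 8 pairs of conditions next in order overlapped. BCL2 fell at 1 µM CDDP against untreated (log2 FC -0.97, SE 0.32, adjusted p 0.022). The BCL2 call was absent in a fit of only the groups compared (-0.97, adjusted p 0.065). BCL2 also did not pass when replicate 3 (-0.67, adjusted p 0.182) of parental 1 µM CDDP, or replicate 2 (-0.80, adjusted p 0.122) of parental untreated was left out. It fell in OlaR cells at 2.5 µM CDDP (log2 FC -1.33, SE 0.32, adjusted p 0.00147). Reads of BCL2 in these libraries were few, 3 to 13 at 2.5 µM CDDP and 22 to 32 with olaparib only. At 2.5 µM CDDP in parental cells BCL2 did not pass (-0.43, SE 0.32, adjusted p 0.345).

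BCL2A1 encodes BFL1, a survival protein that also binds PMAIP1. Parental SUM1315 cells gave BCL2A1 values of 267, 234 and 193 untreated, 166, 199 and 169.5 at 2 µM CDDP, and 212, 212 and 199 at 4 µM CDDP. With olaparib they were 132, 120.2 and 99.9 alone, 102, 122 and 125 with 2 µM CDDP, and 189.7, 173 and 144 with 4 µM CDDP. The OlaR values of BCL2A1 were 648, 641 and 662 with olaparib only, 599, 679.9 and 639.97 at 2 µM CDDP, and 739, 722 and 835 at 4 µM CDDP. All 9 OlaR libraries lay above all 18 parental libraries. BCL2A1 means in SUM1315 ran, from high to low, OlaR 4 µM CDDP, OlaR, OlaR 2 µM CDDP, untreated, 4 µM CDDP, 2 µM CDDP, olaparib + 4 µM CDDP, olaparib and olaparib + 2 µM CDDP. Neighbours in this BCL2A1 order overlapped, except for gaps just before OlaR, untreated and olaparib. BCL2A1 was higher in OlaR than in olaparib-treated parental cells (log2 FC 2.47, SE 0.13, adjusted p 2.4e-16). It fell with olaparib against untreated (log2 FC -0.97, SE 0.13, adjusted p 6.5e-07). BCL2A1 also fell at 2 µM CDDP, where the libraries of the 2 conditions overlapped (log2 FC -0.37, SE 0.13, adjusted p 0.032). The BCL2A1 call was absent in a fit of only the groups compared (-0.37, adjusted p 0.133). BCL2A1 also did not pass when replicate 1 (-0.32, adjusted p 0.116) or replicate 3 (-0.33, adjusted p 0.0844) of parental 2 µM CDDP, or replicate 1 (-0.26, adjusted p 0.189) or replicate 2 (-0.35, adjusted p 0.0706) of parental untreated was left out. BCL2A1 rose when 4 µM CDDP was added to olaparib (log2 FC 0.52, SE 0.13, adjusted p 0.0114). The BCL2A1 call was absent in a fit of only the groups compared (0.52, adjusted p 0.0943). BCL2A1 also did not pass when replicate 1 (0.43, adjusted p 0.0745) or replicate 2 (0.50, adjusted p 0.0515) of parental olaparib + 4 µM CDDP, or replicate 3 (0.41, adjusted p 0.0719) of parental olaparib was left out. In MDA-MB-468 cells BCL2A1 had 8 reads in all, in 5 of 27 libraries, at most 3 in a library, and was not tested there.

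PMAIP1, the BH3-only protein NOXA, had the widest span of condition means in both lines. In parental SUM1315 cells PMAIP1 was 321, 306 and 250.5 untreated, 520.3, 484 and 595 at 2 µM CDDP, and 666, 651 and 652 at 4 µM CDDP. With olaparib, PMAIP1 values were 233, 231 and 286 alone, 373, 352 and 339.8 with 2 µM CDDP, and 479, 554 and 595 with 4 µM CDDP. In OlaR SUM1315 cells PMAIP1 was 65.2, 65.7 and 61.2 with olaparib only, 104, 138 and 112 at 2 µM CDDP, and 136, 149.8 and 122 at 4 µM CDDP. All 9 OlaR libraries lay below all 18 parental libraries, and within each arm every library with CDDP lay above every library without it. PMAIP1 means in SUM1315 ran, from high to low, 4 µM CDDP, olaparib + 4 µM CDDP, 2 µM CDDP, olaparib + 2 µM CDDP, untreated, olaparib, OlaR 4 µM CDDP, OlaR 2 µM CDDP and OlaR. Neighbours in this PMAIP1 order overlapped, except for gaps just before olaparib + 4 µM CDDP, olaparib + 2 µM CDDP, untreated, OlaR 4 µM CDDP and OlaR. PMAIP1 rose at 2 µM CDDP (log2 FC 0.87, SE 0.13, adjusted p 3.69e-06). It rose at 4 µM CDDP against untreated (log2 FC 1.17, SE 0.13, adjusted p 8.28e-09). With olaparib present PMAIP1 rose at 2 µM CDDP (log2 FC 0.51, SE 0.13, adjusted p 0.0243). The PMAIP1 call was absent in a fit of only the groups compared (0.51, adjusted p 0.0767). PMAIP1 also did not pass when replicate 1 (0.47, adjusted p 0.0876) or replicate 2 (0.51, adjusted p 0.0745) of parental olaparib + 2 µM CDDP, or replicate 1 (0.46, adjusted p 0.111) or replicate 2 (0.46, adjusted p 0.124) of parental olaparib was left out. It rose with 4 µM CDDP added to olaparib (log2 FC 1.11, SE 0.13, adjusted p 4.44e-07). PMAIP1 was lower in OlaR than in olaparib-treated parental cells (log2 FC -1.94, SE 0.13, adjusted p 6.54e-14). Within OlaR cells PMAIP1 rose at 2 µM CDDP (log2 FC 0.86, SE 0.13, adjusted p 0.000267). The PMAIP1 call was absent in a fit of only the groups compared (0.86, adjusted p 0.094). It rose in OlaR cells at 4 µM CDDP (log2 FC 1.07, SE 0.13, adjusted p 4.22e-07). Condition means of PMAIP1 spanned 3.34 on this scale, from 656 at 4 µM CDDP to 64.03 in OlaR cells with olaparib only.

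Parental MDA-MB-468 cells gave PMAIP1 values of 81.9, 76.9 and 71.9 untreated, 76.2, 72.01 and 83.4 at 1 µM CDDP, and 129.8, 109.8 and 116 at 2.5 µM CDDP. Under olaparib, PMAIP1 was 46.7, 53.2 and 50.7 alone, 73.1, 63.4 and 69.3 with 1 µM CDDP, and 141, 117 and 116 with 2.5 µM CDDP. OlaR MDA-MB-468 values of PMAIP1 were 97.2, 128 and 92.8 with olaparib only, 109, 131 and 122 at 1 µM CDDP, and 151, 186 and 159.6 at 2.5 µM CDDP. The 3 parental libraries with olaparib alone lay below all others, and the 3 OlaR libraries at 2.5 µM CDDP lay above all others. PMAIP1 means in MDA-MB-468 ran, from high to low, OlaR 2.5 µM CDDP, olaparib + 2.5 µM CDDP, OlaR 1 µM CDDP, 2.5 µM CDDP, OlaR, 1 µM CDDP, untreated, olaparib + 1 µM CDDP and olaparib. Neighbours in this PMAIP1 order overlapped, except for gaps just before olaparib + 2.5 µM CDDP, 1 µM CDDP and olaparib. PMAIP1 fell with olaparib against untreated (log2 FC -0.61, SE 0.16, adjusted p 0.0033). It rose at 2.5 µM CDDP against untreated (log2 FC 0.62, SE 0.16, adjusted p 0.00239). When 2.5 µM CDDP was added to olaparib the PMAIP1 rise was larger (log2 FC 1.29, SE 0.16, adjusted p 4.59e-09). PMAIP1 was higher in OlaR than in olaparib-treated parental cells, the other direction from SUM1315 cells (log2 FC 1.05, SE 0.16, adjusted p 1.46e-07). In OlaR MDA-MB-468 cells PMAIP1 rose at 2.5 µM CDDP (log2 FC 0.65, SE 0.16, adjusted p 0.00189). The 1 µM dose gave no PMAIP1 change that passed in parental cells (0.00, SE 0.16, adjusted p 0.991).

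BBC3 encodes PUMA, a BH3-only protein that binds all survival proteins. BBC3 in parental SUM1315 cells was 817, 862 and 767 untreated, 728, 756 and 732 at 2 µM CDDP, and 664, 595 and 637 at 4 µM CDDP. With olaparib, BBC3 values were 587, 589 and 449.7 alone, 499, 496 and 473 with 2 µM CDDP, and 772, 671 and 685 with 4 µM CDDP. In OlaR SUM1315 cells BBC3 was 295, 325 and 299 with olaparib only, 384, 361 and 392 at 2 µM CDDP, and 491, 505 and 353 at 4 µM CDDP. Untreated libraries were above all others, except that replicate 1 of olaparib + 4 µM CDDP lay above untreated replicate 3, and the 3 OlaR libraries with olaparib only were below all others. BBC3 means in SUM1315 ran, from high to low, untreated, 2 µM CDDP, olaparib + 4 µM CDDP, 4 µM CDDP, olaparib, olaparib + 2 µM CDDP, OlaR 4 µM CDDP, OlaR 2 µM CDDP and OlaR. Neighbours in this BBC3 order overlapped, except for gaps just before 2 µM CDDP, 4 µM CDDP, olaparib and OlaR. BBC3 fell with olaparib (log2 FC -0.60, SE 0.11, adjusted p 0.000102). It fell at 4 µM CDDP against untreated (log2 FC -0.37, SE 0.11, adjusted p 0.00965). BBC3 rose when 4 µM CDDP was added to olaparib (log2 FC 0.40, SE 0.11, adjusted p 0.0271). The BBC3 call was absent in a fit of only the groups compared (0.40, adjusted p 0.0818). BBC3 also did not pass when replicate 1 (0.33, adjusted p 0.119) or replicate 3 (0.42, adjusted p 0.055) of parental olaparib + 4 µM CDDP, or replicate 3 (0.27, adjusted p 0.177) of parental olaparib was left out. BBC3 was lower in OlaR than in olaparib-treated parental cells (log2 FC -0.81, SE 0.11, adjusted p 5.83e-07). Within OlaR cells BBC3 rose at 4 µM CDDP (log2 FC 0.54, SE 0.11, adjusted p 0.00131).

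BBC3 in olaparib-treated parental MDA-MB-468 cells was 27.6, 38.8 and 71.1 alone, 61.9, 56.1 and 75.3 with 1 µM CDDP, and 56.6, 92.7 and 80.3 with 2.5 µM CDDP. The 6 other conditions gave 41.2 to 102. Replicate 3 with olaparib alone lay above replicate 1 with olaparib + 2.5 µM CDDP, so these 2 conditions overlapped. BBC3 rose when 2.5 µM CDDP was added to olaparib (log2 FC 0.81, SE 0.23, adjusted p 0.00636). The BBC3 call was absent in a fit of only the groups compared (0.81, adjusted p 0.0956). BBC3 also did not pass when replicate 2 (0.65, adjusted p 0.0648) of parental olaparib + 2.5 µM CDDP, or replicate 1 (0.50, adjusted p 0.133) of parental olaparib was left out. BBC3 means in MDA-MB-468 were highest for 2.5 µM CDDP and lowest for olaparib, and all 8 pairs of conditions next in order overlapped.

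BCL2L11 encodes BIM, a BH3-only protein that also activates BAX. BCL2L11 in parental SUM1315 cells was 95.02, 72.4 and 49.9 untreated, 92.1, 111 and 87.5 at 2 µM CDDP, and 157, 137 and 91.96 at 4 µM CDDP. With olaparib alone it was 142, 160.3 and 91.9, and the 5 remaining SUM1315 conditions gave 117 to 179. Untreated replicate 1 lay above replicate 3 of olaparib and replicate 3 of 4 µM CDDP, so both pairs of conditions overlapped. BCL2L11 rose with olaparib (log2 FC 0.86, SE 0.23, adjusted p 0.00314). The BCL2L11 call was absent in a fit of only the groups compared (0.86, adjusted p 0.0534). It rose at 4 µM CDDP against untreated (log2 FC 0.83, SE 0.23, adjusted p 0.00321). BCL2L11 means in SUM1315 were highest for OlaR 4 µM CDDP and lowest for untreated, and all 8 pairs of conditions next in order overlapped. In MDA-MB-468 cells BCL2L11 ranged over 172 to 309 and passed in none of the 9 comparisons by limma.

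BIK is a BH3-only protein of the endoplasmic reticulum. BIK in parental SUM1315 cells was 28.8, 20.8 and 30.98 untreated, 22.4, 24.8 and 29.8 at 2 µM CDDP, and 31.9, 39.5 and 26.2 at 4 µM CDDP. With olaparib, BIK values were 33.9, 22.99 and 11.99 alone, 22.7, 24.2 and 26.01 with 2 µM CDDP, and 20.9, 18.8 and 10.5 with 4 µM CDDP. OlaR values of BIK were 105, 123 and 143 with olaparib only, 123, 141 and 143 at 2 µM CDDP, and 97.9, 122 and 128 at 4 µM CDDP. All 9 OlaR libraries lay above all 18 parental libraries. BIK means in SUM1315 ran, from high to low, OlaR 2 µM CDDP, OlaR, OlaR 4 µM CDDP, 4 µM CDDP, untreated, 2 µM CDDP, olaparib + 2 µM CDDP, olaparib and olaparib + 4 µM CDDP. Neighbours in this BIK order overlapped, except for a gap just before 4 µM CDDP. BIK was higher in OlaR than in olaparib-treated parental cells (log2 FC 2.48, SE 0.29, adjusted p 2.2e-08). When olaparib was added to 4 µM CDDP, BIK fell (log2 FC -0.95, SE 0.29, adjusted p 0.0286). The BIK call was absent with no filter on low values (-0.95, adjusted p 0.0551) and in a fit of only the groups compared (-0.95, adjusted p 0.103). BIK also did not pass when replicate 1 (-0.96, adjusted p 0.0694) or replicate 2 (-0.81, adjusted p 0.127) of parental 4 µM CDDP, or replicate 3 (-0.67, adjusted p 0.2) of parental olaparib + 4 µM CDDP was left out. Condition means of BIK spanned 3.00 on this scale in SUM1315 cells.

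BIK in MDA-MB-468 cells was 87.6, 49.6 and 66.3 at 2.5 µM CDDP and 50.7, 34.4 and 46.1 with olaparib + 2.5 µM CDDP. The other 4 parental conditions gave 44.5 to 66.2 and the 3 OlaR conditions 72.2 to 92.4. Replicate 2 at 2.5 µM CDDP lay below replicate 1 of the combination, so these conditions overlapped. BIK fell when olaparib was added to 2.5 µM CDDP (log2 FC -0.60, SE 0.20, adjusted p 0.0415). The BIK call was absent with no filter on low values (-0.60, adjusted p 0.0551) and in a fit of only the groups compared (-0.60, adjusted p 0.148). BIK also did not pass when replicate 1 (-0.40, adjusted p 0.288) or replicate 3 (-0.60, adjusted p 0.0986) of parental 2.5 µM CDDP, or replicate 2 (-0.44, adjusted p 0.248) or replicate 3 (-0.65, adjusted p 0.0685) of parental olaparib + 2.5 µM CDDP was left out. BIK means in MDA-MB-468 were highest for OlaR 2.5 µM CDDP and lowest for olaparib + 2.5 µM CDDP, and all 8 pairs of conditions next in order overlapped.

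BAX is an effector that forms pores in the outer mitochondrial membrane. BAX in parental SUM1315 cells was 265, 244 and 324 untreated, 275, 163 and 299 at 2 µM CDDP, and 197, 270.1 and 256 at 4 µM CDDP. With olaparib, BAX values were 169, 183 and 174 alone, 274, 246 and 234 with 2 µM CDDP, and 246, 236 and 199 with 4 µM CDDP. In OlaR SUM1315 cells BAX was 315, 317 and 283 with olaparib only, 386, 292 and 362 at 2 µM CDDP, and 144, 192 and 174 at 4 µM CDDP. OlaR libraries at 4 µM CDDP lay below the other 6 OlaR libraries, and olaparib-treated parental libraries lay below untreated ones without overlap. BAX means in SUM1315 ran, from high to low, OlaR 2 µM CDDP, OlaR, untreated, olaparib + 2 µM CDDP, 2 µM CDDP, 4 µM CDDP, olaparib + 4 µM CDDP, olaparib and OlaR 4 µM CDDP. Neighbours in this BAX order overlapped, except for a gap just before olaparib. BAX fell with olaparib (log2 FC -0.65, SE 0.17, adjusted p 0.00289). BAX was higher in OlaR than in olaparib-treated parental cells (log2 FC 0.79, SE 0.17, adjusted p 0.000254). Within OlaR cells BAX fell at 4 µM CDDP (log2 FC -0.85, SE 0.17, adjusted p 0.000616).

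BAX in parental MDA-MB-468 cells was 105, 108 and 111 untreated, 82.4, 129 and 106 at 1 µM CDDP, and 132, 157 and 123 at 2.5 µM CDDP. With olaparib, MDA-MB-468 values of BAX were 132, 100.1 and 95.1 alone, 195, 99.2 and 114 with 1 µM CDDP, and 133, 139 and 171 with 2.5 µM CDDP. In OlaR MDA-MB-468 cells BAX was 265, 212 and 256 with olaparib only, 239, 216 and 224 at 1 µM CDDP, and 245, 289 and 257 at 2.5 µM CDDP. All 9 OlaR libraries lay above all 18 parental libraries. BAX means in MDA-MB-468 ran, from high to low, OlaR 2.5 µM CDDP, OlaR, OlaR 1 µM CDDP, olaparib + 2.5 µM CDDP, 2.5 µM CDDP, olaparib + 1 µM CDDP, olaparib, untreated and 1 µM CDDP. Neighbours in this BAX order overlapped, except for a gap just before olaparib + 2.5 µM CDDP. BAX was higher in OlaR than in olaparib-treated parental cells of this line (log2 FC 1.16, SE 0.16, adjusted p 3.92e-08). BAX rose when 2.5 µM CDDP was added to olaparib (log2 FC 0.44, SE 0.16, adjusted p 0.0445). The BAX call was absent with no filter on low values (0.44, adjusted p 0.127), in a fit of only the groups compared (0.44, adjusted p 0.0785) and with replicate number as a block (0.44, adjusted p 0.0509). BAX also did not pass when replicate 2 (0.48, adjusted p 0.0646) or replicate 3 (0.33, adjusted p 0.229) of parental olaparib + 2.5 µM CDDP, or replicate 2 (0.39, adjusted p 0.142) or replicate 3 (0.35, adjusted p 0.18) of parental olaparib was left out.

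BAK1, the other effector, ranged over 70.6 to 125 in SUM1315 and 60.6 to 112 in MDA-MB-468 libraries. It was 95.99, 93.2 and 117 in untreated and 99.1, 81.96 and 70.6 in OlaR SUM1315 cells, which overlapped. In MDA-MB-468 cells BAK1 was 75.3, 68.6 and 78.5 untreated and 69.3, 60.6 and 74.8 in OlaR cells, which also overlapped. BAK1 condition means spanned 0.54 on this scale in each line, and it passed in none of the comparisons. BAK1 means in SUM1315 were highest for 4 µM CDDP and lowest for olaparib, and all 8 pairs of conditions next in order overlapped. BAK1 means in MDA-MB-468 were highest for olaparib + 2.5 µM CDDP and lowest for OlaR, and all 8 pairs of conditions next in order overlapped.

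**Figure D2:**
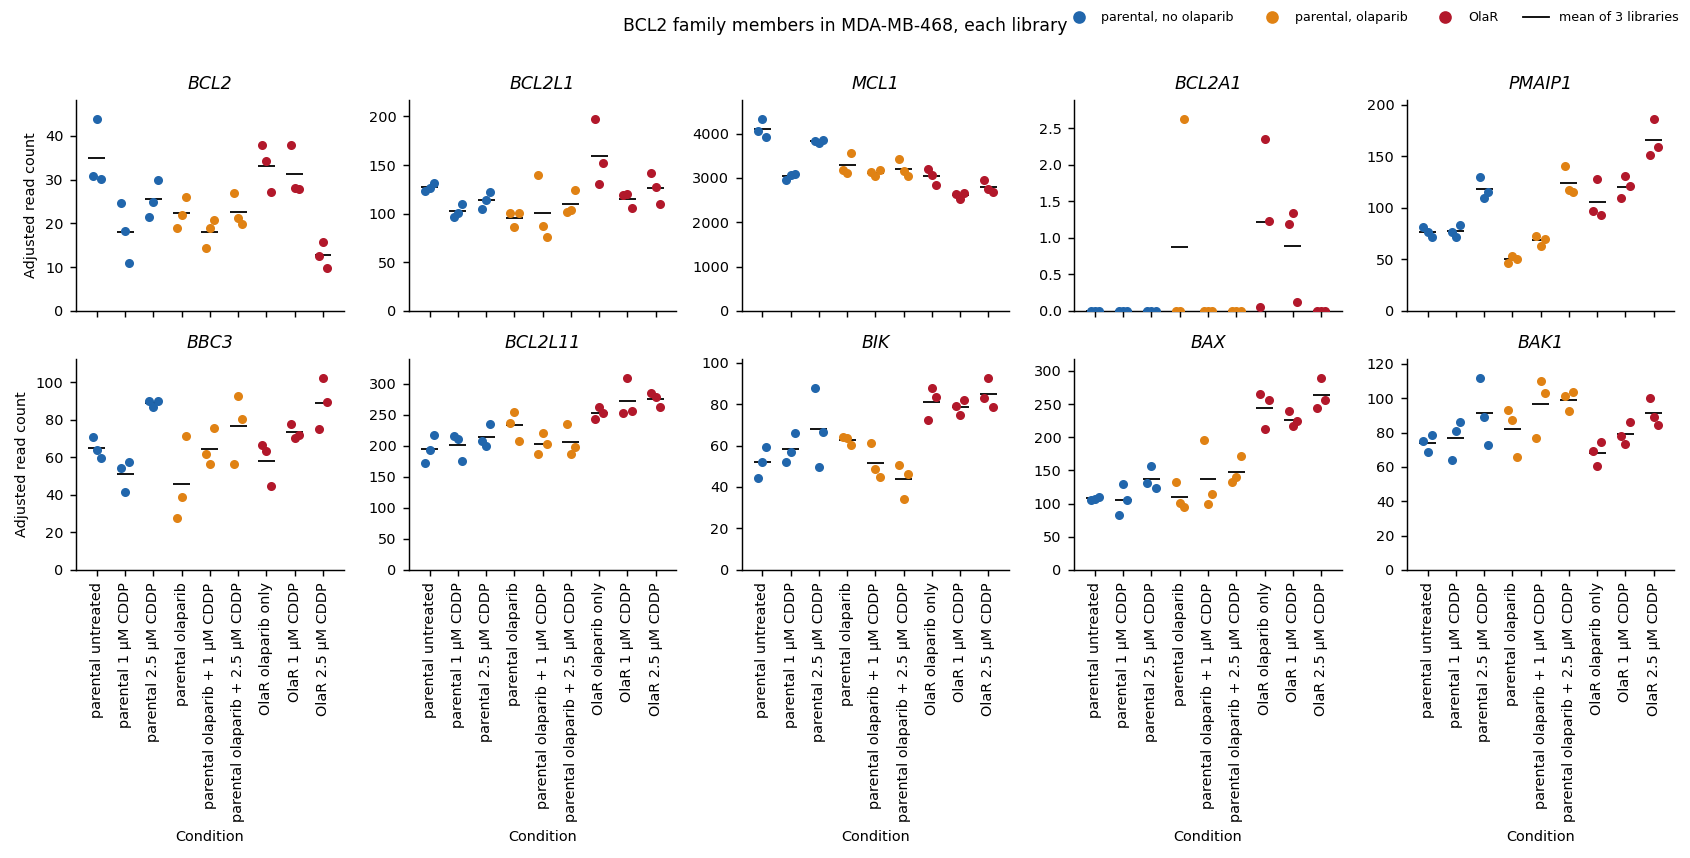
Adjusted read counts of the members in MDA-MB-468 cells, drawn as for SUM1315 cells, with 1 dot for each library and a line at the mean of 3.

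Members were then counted in each comparison beside all genes tested in the same fit. In parental SUM1315 cells given olaparib, 6 of 10 members passed, against 36% of all genes tested (18.9% higher and 17.1% lower). BCL2L11 rose, while BBC3, BAX, BCL2A1, MCL1 and BCL2L1 fell, and the median log2 FC was -0.57 over members and 0.00 over all genes. At 2 µM CDDP against untreated, 4 of 10 members passed, against 33.9% of all genes tested (19.4% higher and 14.5% lower). PMAIP1 rose, while BCL2A1, MCL1 and BCL2L1 fell, and the median log2 FC was -0.25 over members and 0.01 over all genes. At 4 µM CDDP against untreated, 6 of 10 members passed, against 43.9% of all genes tested (22.2% higher and 21.7% lower). PMAIP1 and BCL2L11 rose, while BBC3, MCL1, BCL2 and BCL2L1 fell, and the median log2 FC was -0.17 over members and 0.00 over all genes.

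For 2 µM CDDP on top of olaparib in SUM1315 cells, 2 of 10 members passed, against 3.76% of all genes tested (2.09% higher and 1.67% lower). PMAIP1 rose and MCL1 fell, and the median log2 FC was 0.11 over members and -0.02 over all genes. With 4 µM CDDP added to olaparib, 3 of 10 members passed, against 8.44% of all genes tested (4.35% higher and 4.09% lower). PMAIP1, BCL2A1 and BBC3 rose, and the median log2 FC was 0.20 over members and -0.01 over all genes. For olaparib on top of 4 µM CDDP in these cells, 1 of 10 members passed, against 12.8% of all genes tested (6.32% higher and 6.52% lower). BIK fell, and the median log2 FC was -0.13 over members and 0.00 over all genes. The first 2 of these share the olaparib libraries, and the last 2 share the libraries of olaparib + 4 µM CDDP.

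Between OlaR and olaparib-treated parental SUM1315 cells, 7 of 10 members passed, against 47.2% of all genes tested (21.6% higher and 25.7% lower). BIK, BCL2A1, BCL2L1 and BAX were higher in OlaR cells, and BBC3, MCL1 and PMAIP1 lower, and the median log2 FC was 0.08 over members and -0.05 over all genes. In OlaR SUM1315 cells at 2 µM CDDP, 1 of 10 members passed, against 1.42% of all genes tested (0.548% higher and 0.876% lower). PMAIP1 rose, and the median log2 FC was 0.13 over members and 0.00 over all genes. At 4 µM CDDP in OlaR SUM1315 cells, 4 of 10 members passed, against 16.7% of all genes tested (7.13% higher and 9.61% lower). PMAIP1 and BBC3 rose, while BCL2L1 and BAX fell, and the median log2 FC was 0.12 over members and 0.00 over all genes. These 3 share the OlaR libraries with olaparib only.

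In parental MDA-MB-468 cells given olaparib, 2 of 9 members passed, against 21.5% of all genes tested (12.4% higher and 9.11% lower). MCL1 and PMAIP1 fell, and the median log2 FC was -0.32 over members and 0.01 over all genes. At 1 µM CDDP against untreated, 2 of 9 members passed, against 20% of all genes tested (10.6% higher and 9.41% lower). MCL1 and BCL2 fell, and the median log2 FC was -0.05 over members and -0.01 over all genes. At 2.5 µM CDDP against untreated, 1 of 9 members passed, against 25.1% of all genes tested (13.3% higher and 11.8% lower). PMAIP1 rose, and the median log2 FC was 0.27 over members and 0.01 over all genes. BCL2A1 is the member not tested in this line.

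For 1 µM CDDP on top of olaparib in MDA-MB-468 cells, 0 of 9 members passed, against 5.26% of all genes tested (2.3% higher and 2.97% lower). By limma 2 members had an unadjusted p under 0.05, as did 2270 of all 13012 genes tested. Of the members, edgeR and DESeq2 each called 0, and the median log2 FC was 0.03 over members and 0.00 over all genes. The limma count was 1 when replicate 3 of parental olaparib was left out. With 2.5 µM CDDP added to olaparib, 3 of 9 members passed, against 23.1% of all genes tested (10.1% higher and 13.1% lower). PMAIP1, BBC3 and BAX rose, and the median log2 FC was 0.20 over members and 0.00 over all genes. For olaparib on top of 2.5 µM CDDP in this line, 2 of 9 members passed, against 11.9% of all genes tested (4.63% higher and 7.29% lower). MCL1 and BIK fell, and the median log2 FC was -0.05 over members and 0.00 over all genes.

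Between OlaR and olaparib-treated parental MDA-MB-468 cells, 3 of 9 members passed, against 51.5% of all genes tested (23.6% higher and 27.9% lower). BAX, PMAIP1 and BCL2L1 were higher in OlaR cells, and the median log2 FC was 0.42 over members and -0.03 over all genes. In OlaR MDA-MB-468 cells at 1 µM CDDP, 1 of 9 members passed, against 4.76% of all genes tested (1.84% higher and 2.91% lower). MCL1 fell, and the median log2 FC was -0.05 over members and -0.01 over all genes. At 2.5 µM CDDP in OlaR MDA-MB-468 cells, 2 of 9 members passed, against 18.7% of all genes tested (7.43% higher and 11.2% lower). PMAIP1 rose and BCL2 fell, and the median log2 FC was 0.11 over members and 0.00 over all genes. Side by side without a test, BCL2L1 and BAX were higher in OlaR than in olaparib-treated parental cells of both lines, while PMAIP1 was lower in SUM1315 and higher in MDA-MB-468 cells.

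**Figure D3:**
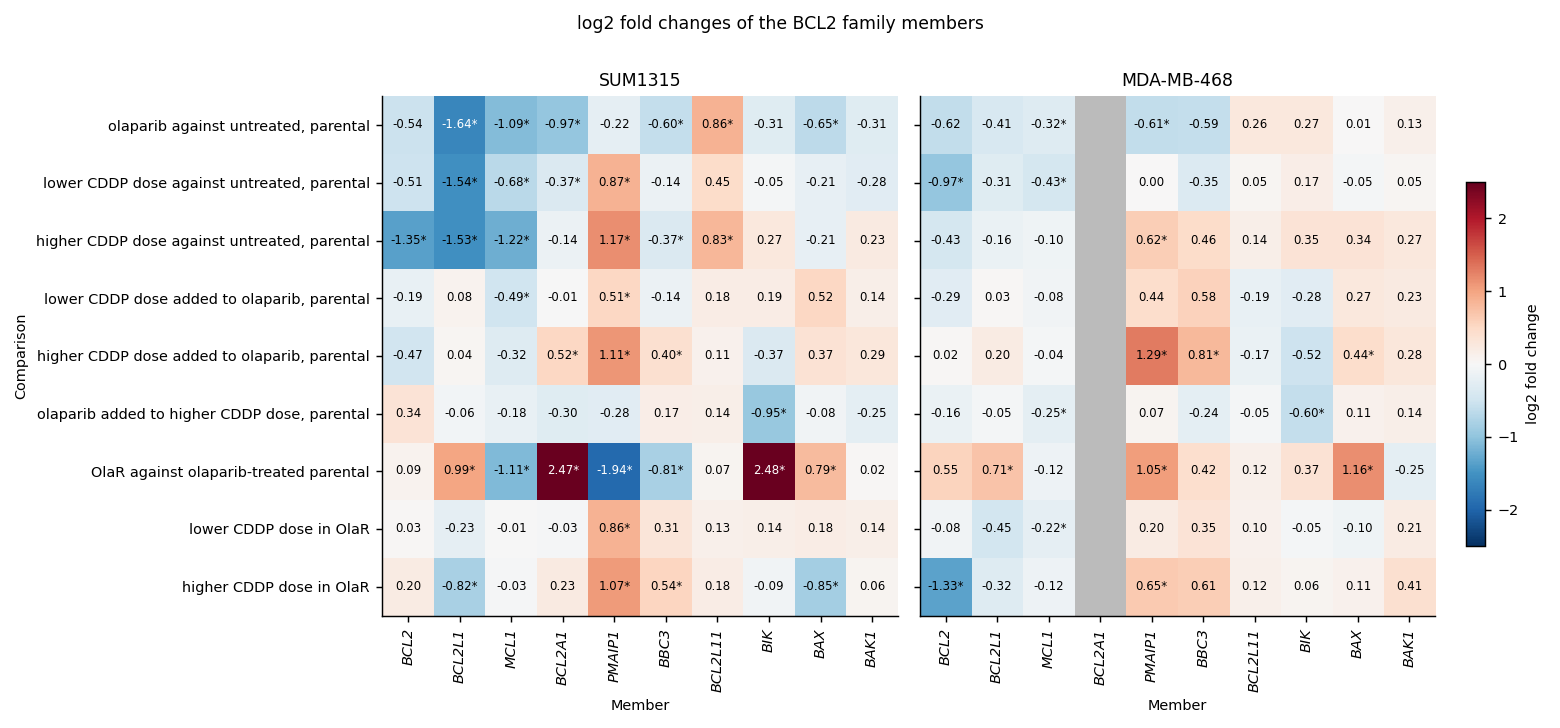
Log2 fold changes of the members in the 9 comparisons of each line. An asterisk marks an adjusted p at or under 0.05 (limma). BCL2A1 was not tested in MDA-MB-468 cells and is grey there.

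Differences between CDDP effects were tested for the higher dose. For the 4 µM CDDP effect with olaparib minus without, in parental SUM1315 cells, 4 of 10 members passed, against 21.5% of all genes tested (9.92% higher and 11.6% lower). BCL2L1, MCL1, BBC3 and BCL2A1 had a positive difference, and the median log2 difference was 0.62 over members and 0.01 over all genes. The untreated libraries, which stood apart, enter this difference. The effect on BCL2L1 was -1.53 without and 0.04 with olaparib (log2 difference 1.57, SE 0.20, adjusted p 8.63e-07). The MCL1 effect was -1.22 without and -0.32 with olaparib (log2 difference 0.91, SE 0.18, adjusted p 0.000324). BBC3 had effects of -0.37 without and 0.40 with olaparib (log2 difference 0.76, SE 0.16, adjusted p 0.000766). For BCL2A1 they were -0.14 and 0.52 (log2 difference 0.66, SE 0.19, adjusted p 0.0103).

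For the 4 µM CDDP effect in OlaR minus olaparib-treated parental SUM1315 cells, 2 of 10 members passed, against 6.4% of all genes tested (1.99% higher and 4.41% lower). BAX and BCL2L1 had a negative difference, and the median log2 difference was 0.01 over members and 0.01 over all genes. The BAX effect was -0.85 in OlaR and 0.37 in olaparib-treated parental cells (log2 difference -1.21, SE 0.24, adjusted p 0.00155). The BCL2L1 effect was -0.82 in OlaR and 0.04 in olaparib-treated parental cells (log2 difference -0.86, SE 0.20, adjusted p 0.00872). For PMAIP1 the effects were 1.07 and 1.11 and the difference did not pass (-0.05, SE 0.18, adjusted p 0.925).

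In parental MDA-MB-468 cells, for the 2.5 µM CDDP effect with olaparib minus without, 2 of 9 members passed, against 20.2% of all genes tested (8.14% higher and 12% lower). PMAIP1 had a positive and BIK a negative difference, and the median log2 difference was 0.10 over members and 0.00 over all genes. PMAIP1 effects were 0.62 without and 1.29 with olaparib (log2 difference 0.67, SE 0.22, adjusted p 0.0239). PMAIP1 did not pass when replicate 2 (0.62, adjusted p 0.0613) of parental 2.5 µM CDDP, or replicate 1 (0.59, adjusted p 0.0772) of parental olaparib + 2.5 µM CDDP was left out. For PMAIP1 the same held when replicate 1 (0.62, adjusted p 0.0547) of parental olaparib, or replicate 1 (0.63, adjusted p 0.0607) of parental untreated was left out. BIK effects were 0.35 without and -0.52 with olaparib (log2 difference -0.88, SE 0.29, adjusted p 0.0227). The BIK call was absent in a fit of only the groups compared (-0.88, adjusted p 0.0613). BIK also did not pass when replicate 1 (-0.68, adjusted p 0.109) of parental 2.5 µM CDDP, or replicate 2 (-0.72, adjusted p 0.0915) of parental olaparib + 2.5 µM CDDP was left out. For BIK the same held when replicate 1 (-0.77, adjusted p 0.0719) of parental untreated was left out.

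For OlaR minus olaparib-treated parental MDA-MB-468 cells at 2.5 µM CDDP, 2 of 9 members passed, against 15% of all genes tested (7.58% higher and 7.47% lower). PMAIP1 and BCL2 had a negative difference, and the median log2 difference was -0.19 over members and -0.02 over all genes. PMAIP1 effects were 0.65 in OlaR and 1.29 in olaparib-treated parental cells (log2 difference -0.64, SE 0.22, adjusted p 0.042). The PMAIP1 call was absent with a pseudocount of 5 (-0.60, adjusted p 0.0517) and in a fit of only the groups compared (-0.64, adjusted p 0.057). PMAIP1 also did not pass when replicate 1 (-0.58, adjusted p 0.107) or replicate 3 (-0.62, adjusted p 0.0818) of OlaR 2.5 µM CDDP, or replicate 2 (-0.50, adjusted p 0.153) of OlaR with olaparib only was left out. For PMAIP1 the same held when replicate 1 (-0.55, adjusted p 0.117) or replicate 2 (-0.68, adjusted p 0.0527) of parental olaparib + 2.5 µM CDDP, or replicate 1 (-0.59, adjusted p 0.088) or replicate 3 (-0.65, adjusted p 0.0562) of parental olaparib was left out. BCL2 effects were -1.33 in OlaR and 0.02 in olaparib-treated parental cells (log2 difference -1.36, SE 0.45, adjusted p 0.0307). OlaR libraries at 2.5 µM CDDP held only 3 to 13 BCL2 reads. The BCL2 call was absent with no filter on low values (-1.36, adjusted p 0.0577). BCL2 also did not pass when replicate 1 (-1.36, adjusted p 0.0509) or replicate 3 (-1.2, adjusted p 0.0847) of OlaR 2.5 µM CDDP, or replicate 1 (-1.26, adjusted p 0.076) or replicate 2 (-1.33, adjusted p 0.0573) of OlaR with olaparib only was left out. For BCL2 the same held when replicate 1 (-1.23, adjusted p 0.0752) of parental olaparib + 2.5 µM CDDP, or replicate 1 (-1.25, adjusted p 0.0719) or replicate 2 (-1.35, adjusted p 0.0501) of parental olaparib was left out.

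Between lines, effects of the higher CDDP dose measured within each line were subtracted, SUM1315 minus MDA-MB-468, in a fit of all 54 libraries over 14460 genes. The doses differ between the lines, so a difference compares 4 with 2.5 µM CDDP. The parental difference without olaparib rests on the untreated libraries of both lines. In parental cells without olaparib, 5 of 10 members passed, against 27.5% of all genes tested (13.7% higher and 13.9% lower). BCL2A1 is 1 of the 10 but had 8 reads in all in MDA-MB-468 cells, having passed the filter through SUM1315 cells only. So 9 members can be compared between lines, while the medians over members include BCL2A1, which passed in none of these differences. BCL2L11 and PMAIP1 had a positive and BBC3, MCL1 and BCL2L1 a negative difference, and the median log2 difference was -0.34 over members and -0.03 over all genes. The lines differed in BCL2L1 (log2 difference -1.37, SE 0.23, adjusted p 7.29e-06). They differed in MCL1 (log2 difference -1.13, SE 0.15, adjusted p 7.08e-08). BBC3 differed between the lines (log2 difference -0.82, SE 0.26, adjusted p 0.0154). PMAIP1 differed between the lines (log2 difference 0.55, SE 0.18, adjusted p 0.0163). PMAIP1 did not pass when replicate 3 (0.45, adjusted p 0.0718) of SUM1315 parental untreated was left out. BCL2L11 differed between the lines (log2 difference 0.69, SE 0.26, adjusted p 0.0433). The BCL2L11 call was absent with no filter on low values (0.69, adjusted p 0.0599) and in a fit of only the groups compared (0.69, adjusted p 0.141). BCL2L11 also did not pass when replicate 1 (0.67, adjusted p 0.0755) or replicate 2 (0.65, adjusted p 0.0882) of MDA-MB-468 parental 2.5 µM CDDP, or replicate 2 (0.69, adjusted p 0.0651) or replicate 3 (0.61, adjusted p 0.109) of MDA-MB-468 parental untreated was left out. For BCL2L11 the same held when replicate 1 (0.53, adjusted p 0.152) or replicate 2 (0.63, adjusted p 0.0952) of SUM1315 parental 4 µM CDDP, or replicate 2 (0.72, adjusted p 0.051) or replicate 3 (0.45, adjusted p 0.211) of SUM1315 parental untreated was left out.

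In OlaR cells, for the same subtraction of lines, 2 of 10 members passed, against 5.44% of all genes tested (2.56% higher and 2.88% lower). The 10 again include BCL2A1, with 0 to 2 reads in MDA-MB-468 OlaR libraries with olaparib only and 0 at 2.5 µM CDDP. BCL2 had a positive and BAX a negative difference, and the median log2 difference was -0.01 over members and 0.01 over all genes. OlaR cells of the lines differed in BCL2 (log2 difference 1.53, SE 0.45, adjusted p 0.0335). MDA-MB-468 OlaR libraries at 2.5 µM CDDP held only 3 to 13 BCL2 reads. The BCL2 call was absent by edgeR (1.52, adjusted p 0.101), by DESeq2 (1.51, adjusted p 0.0725) and in a fit of only the groups compared (1.53, adjusted p 0.0558). BCL2 also did not pass when replicate 1 (1.53, adjusted p 0.0604) or replicate 3 (1.37, adjusted p 0.0934) of MDA-MB-468 OlaR 2.5 µM CDDP, or replicate 1 (1.43, adjusted p 0.0814) or replicate 2 (1.5, adjusted p 0.0673) of MDA-MB-468 OlaR with olaparib only was left out. For BCL2 the same held when replicate 1 (1.44, adjusted p 0.0816) or replicate 3 (1.44, adjusted p 0.067) of SUM1315 OlaR 4 µM CDDP, or replicate 3 (1.24, adjusted p 0.113) of SUM1315 OlaR with olaparib only was left out. OlaR cells of the lines differed in BAX (log2 difference -0.96, SE 0.26, adjusted p 0.021). BAX did not pass when replicate 2 (-0.89, adjusted p 0.0537) of MDA-MB-468 OlaR 2.5 µM CDDP, or replicate 2 (-0.86, adjusted p 0.067) of MDA-MB-468 OlaR with olaparib only was left out. For BAX the same held when replicate 1 (-0.85, adjusted p 0.0717) of SUM1315 OlaR 4 µM CDDP was left out. For CDDP added to olaparib in parental cells of the lines, 0 of 10 members passed, against 1.87% of all genes tested (0.996% higher and 0.871% lower). Here too BCL2A1 is counted, with 3 reads in all in MDA-MB-468 olaparib libraries and 0 with olaparib + 2.5 µM CDDP. By limma 1 member had an unadjusted p under 0.05, as did 1721 of all 14460 genes tested. Of the members, edgeR and DESeq2 each called 0, and the median log2 difference was -0.11 over members and -0.01 over all genes.

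**Figure D4:**
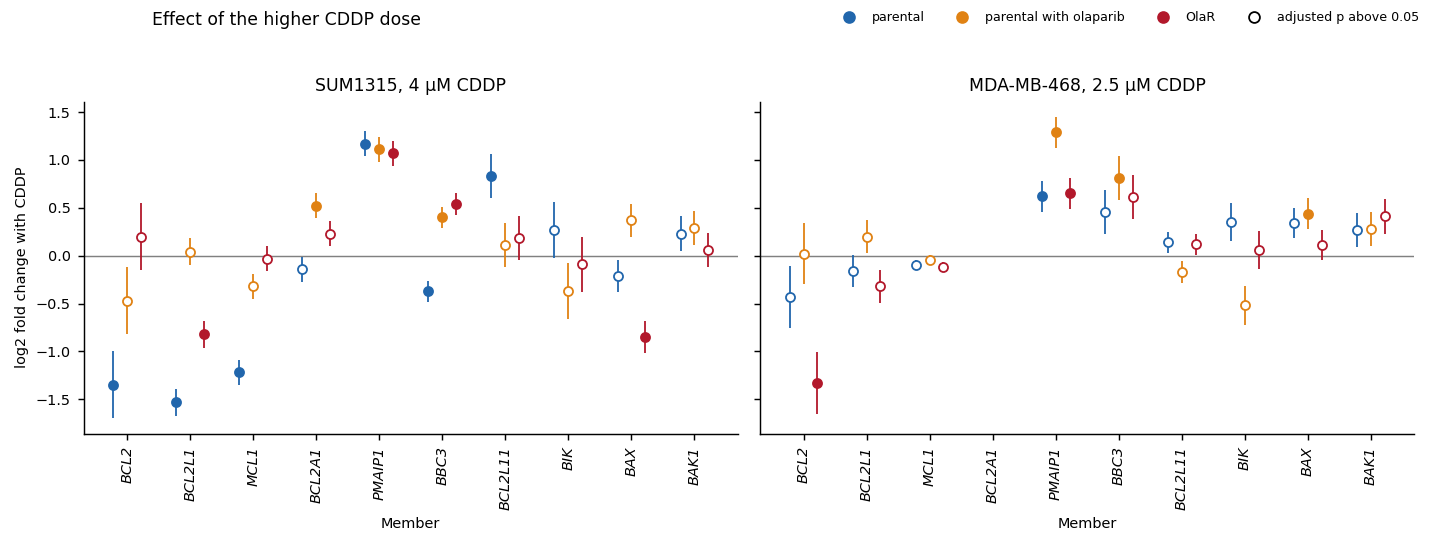
Log2 fold changes of the members with the higher CDDP dose in parental cells, with olaparib and in OlaR cells. Bars are the SE, and open circles have an adjusted p above 0.05.

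Wider lists of apoptosis genes were counted in 4 comparisons of each line: OlaR against olaparib-treated parental cells, the higher CDDP dose against untreated, that dose added to olaparib, and that dose in OlaR cells. Medians of log2 fold changes over all genes tested lay between -0.05 and 0.01 in these comparisons. Brackets hold the median over the list and the percentage of all genes tested that passed. For each list and line the 2 genes with the largest change that passed are named, with the mean ± SD of 3 libraries.

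Other BCL2 family members (13 genes) had 9 genes tested in SUM1315 cells. Of these, 5 passed between OlaR and olaparib-treated parental cells (median log2 FC 0.20, all genes 47.2%), 4 at 4 µM CDDP (0.18, 43.9%), 0 with CDDP added to olaparib (-0.02, 8.44%) and 1 with CDDP in OlaR cells (0.01, 16.7%). The count of 0 with CDDP added to olaparib is by limma, with 0 at an unadjusted p under 0.05 and 0 by edgeR and by DESeq2. Over all 13133 genes tested, 2932 had an unadjusted p under 0.05 by limma there. BMF was 82.99 ± 25.8 in OlaR cells and 26.3 ± 4.94 with olaparib in parental cells (log2 FC 1.59, SE 0.36, adjusted p 0.000472). BCL2L2 was 55.7 ± 13.2 with CDDP in OlaR cells and 26.04 ± 5.13 in OlaR cells without it (log2 FC 1.06, SE 0.26, adjusted p 0.00438). In MDA-MB-468 cells 11 genes of this list were tested. Of these, 8 passed between OlaR and olaparib-treated parental cells (median log2 FC 0.37, all genes 51.5%), 3 at 2.5 µM CDDP (0.08, 25.1%), 3 with CDDP added to olaparib (-0.03, 23.1%) and 1 with CDDP in OlaR cells (-0.11, 18.7%). BCL2L14 was 18.98 ± 7.41 in OlaR cells and 8.0023 ± 0.305 with olaparib in parental cells (log2 FC 1.08, SE 0.41, adjusted p 0.0255). BCL2L13 was 549 ± 68.9 in OlaR cells and 276 ± 35.04 with olaparib in parental cells (log2 FC 0.99, SE 0.10, adjusted p 1.26e-11).

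The apoptosome and caspase list (13 genes) had 11 genes tested in SUM1315 cells. Of these, 4 passed between OlaR and olaparib-treated parental cells (median log2 FC -0.14, all genes 47.2%), 8 at 4 µM CDDP (0.73, 43.9%), 1 with CDDP added to olaparib (0.15, 8.44%) and 2 with CDDP in OlaR cells (0.23, 16.7%). CASP8 was 469.8 ± 86.2 with CDDP and 206 ± 121 untreated (log2 FC 1.36, SE 0.26, adjusted p 6.46e-05). CASP9 was 43.8 ± 7.75 with CDDP and 21.4 ± 16.1 untreated, with overlapping libraries (log2 FC 1.26, SE 0.33, adjusted p 0.0026). In MDA-MB-468 cells 10 genes of this list were tested. Of these, 5 passed between OlaR and olaparib-treated parental cells (median log2 FC -0.22, all genes 51.5%), 2 at 2.5 µM CDDP (0.01, 25.1%), 3 with CDDP added to olaparib (-0.08, 23.1%) and 3 with CDDP in OlaR cells (0.01, 18.7%). CASP9 was 26.7 ± 8.34 with CDDP in OlaR cells and 43.6 ± 4.48 in OlaR cells without it (log2 FC -0.72, SE 0.23, adjusted p 0.0205). CASP9 did not pass by edgeR (adjusted p 0.0894) or by DESeq2 (adjusted p 0.0996). CASP8 was 98.9 ± 25.6 in OlaR cells and 152 ± 17.3 with olaparib in parental cells (log2 FC -0.64, SE 0.18, adjusted p 0.00285).

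The inhibitors of apoptosis (6 genes) had 5 genes tested in SUM1315 cells. Of these, 4 passed between OlaR and olaparib-treated parental cells (median log2 FC -0.64, all genes 47.2%), 4 at 4 µM CDDP (0.33, 43.9%), 1 with CDDP added to olaparib (0.30, 8.44%) and 2 with CDDP in OlaR cells (0.19, 16.7%). BIRC3 was 1279 ± 27.6 with olaparib and CDDP and 448 ± 43.2 with olaparib (log2 FC 1.51, SE 0.13, adjusted p 1.68e-10). BIRC5 was 1313 ± 4.78 with CDDP and 636 ± 87.2 untreated (log2 FC 1.05, SE 0.10, adjusted p 1.47e-10). In MDA-MB-468 cells 5 genes of this list were tested. Of these, 3 passed between OlaR and olaparib-treated parental cells (median log2 FC -0.05, all genes 51.5%), 2 at 2.5 µM CDDP (0.08, 25.1%), 1 with CDDP added to olaparib (0.10, 23.1%) and 2 with CDDP in OlaR cells (-0.18, 18.7%). BIRC3 was 95.2 ± 10.6 in OlaR cells and 31.9 ± 5.03 with olaparib in parental cells (log2 FC 1.55, SE 0.25, adjusted p 9.43e-07). BIRC5 was 1719.8 ± 37.3 in OlaR cells and 2996 ± 109.6 with olaparib in parental cells (log2 FC -0.80, SE 0.05, adjusted p 4.12e-18).

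Mitochondrial channels and proteins that turn over or bind members (9 genes) had 9 genes tested in SUM1315 cells. Of these, 6 passed between OlaR and olaparib-treated parental cells (median log2 FC -0.03, all genes 47.2%), 7 at 4 µM CDDP (-0.02, 43.9%), 2 with CDDP added to olaparib (-0.09, 8.44%) and 1 with CDDP in OlaR cells (-0.10, 16.7%). HUWE1 was 2947 ± 107 in OlaR cells and 1421 ± 78.1 with olaparib in parental cells (log2 FC 1.05, SE 0.11, adjusted p 1.5e-09). FBXW7 was 283 ± 26.5 with CDDP and 535 ± 104 untreated (log2 FC -0.90, SE 0.13, adjusted p 1.16e-06). In MDA-MB-468 cells 9 genes of this list were tested. Of these, 4 passed between OlaR and olaparib-treated parental cells (median log2 FC 0.07, all genes 51.5%), 4 at 2.5 µM CDDP (-0.10, 25.1%), 5 with CDDP added to olaparib (-0.09, 23.1%) and 2 with CDDP in OlaR cells (-0.12, 18.7%). USP9X was 432 ± 12.6 in OlaR cells and 808 ± 56.9 with olaparib in parental cells (log2 FC -0.90, SE 0.08, adjusted p 3.75e-14). HUWE1 was 1127 ± 90.2 in OlaR cells and 1971 ± 165 with olaparib in parental cells (log2 FC -0.81, SE 0.06, adjusted p 2.31e-15).

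Transcription factors known to act on members (10 genes) had 10 genes tested in SUM1315 cells. Of these, 6 passed between OlaR and olaparib-treated parental cells (median log2 FC -0.01, all genes 47.2%), 7 at 4 µM CDDP (0.43, 43.9%), 4 with CDDP added to olaparib (0.22, 8.44%) and 3 with CDDP in OlaR cells (0.14, 16.7%). DDIT3 was 179.8 ± 11.2 with olaparib and CDDP and 59.8 ± 5.76 with olaparib (log2 FC 1.58, SE 0.21, adjusted p 3.65e-06). ATF3 was 165 ± 2.26 with olaparib and CDDP and 67.6 ± 7.19 with olaparib (log2 FC 1.28, SE 0.18, adjusted p 1.1e-05). In MDA-MB-468 cells 9 genes of this list were tested. Of these, 5 passed between OlaR and olaparib-treated parental cells (median log2 FC 0.09, all genes 51.5%), 4 at 2.5 µM CDDP (0.12, 25.1%), 5 with CDDP added to olaparib (0.14, 23.1%) and 4 with CDDP in OlaR cells (0.25, 18.7%). ATF3 was 317 ± 22.4 with olaparib and CDDP and 59.7 ± 10.5 with olaparib (log2 FC 2.40, SE 0.17, adjusted p 8.51e-17). DDIT3 was 69.3 ± 9.01 with olaparib and CDDP and 33.1 ± 7.57 with olaparib (log2 FC 1.06, SE 0.23, adjusted p 0.000445).

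Genes most like PMAIP1, the member with the widest span in each line, were listed by Pearson correlation over the 27 libraries of the line. In SUM1315 cells the first 3 of 13132 other genes were DDX58 (r = 0.972, Spearman 0.970), RFC1 (r = 0.965, Spearman 0.965) and TRPA1 (r = 0.961, Spearman 0.966). In MDA-MB-468 cells the first 3 of 13011 other genes were GADD45A (r = 0.921, Spearman 0.883), SLC43A3 (r = 0.916, Spearman 0.877) and SNHG12 (r = 0.894, Spearman 0.858). Libraries of a condition are not independent, so no p-value is given.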

How the data were processed

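RNA of 54 cell line libraries (3 for each of 18 conditions) was sequenced with the QuantSeq 3′ FWD kit. The authors demultiplexed reads with CASAVA 1.8.2, checked them with FastQC, aligned them to hg38 with STAR, counted them with HTSeq and adjusted them with edgeR (annotation not stated). The deposited values are not whole counts but an adjusted signal, here called adjusted read counts, so limma was the main test. They equal reads brought by edgeR to a common size of 5585170 at dispersion 0.01039. Whole reads were recovered for 100% of 1483380 values (largest relative difference 8.2e-10). The table held 27470 genes, of which 4082 had no reads, 27 names had become dates and 2 names were repeated. All per-sample columns were used.

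Each line was fitted with limma 3.58.1 (R 4.3.3), with the value plus 1 on a log2 scale and an intensity trend, for genes with at least 10 in at least 3 of its libraries, and both lines together for differences between lines. P-values were adjusted over all genes tested by the Benjamini-Hochberg method. Alternatives were edgeR 4.0.16 and DESeq2 1.42.0 on recovered reads, no filter, a pseudocount of 5, a fold change of at least 2, a fit of only the groups compared, a replicate block, and leaving out each library in turn. Between OlaR and olaparib-treated parental cells, 6203 SUM1315 and 6702 MDA-MB-468 genes passed by limma, 5938 and 6806 by edgeR on the recovered counts. The steps were tested on simulated data. In SUM1315 counts limma called 84 of 109 genes given a log2 change of 1 and made 8 false calls. The 13133 genes tested there include the 109 and others given a larger log2 change. Simulated reads had the same dispersion in every gene and library, while the spread between replicates of the data varied by condition. These rates therefore need not hold in the data.

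The members and lists were chosen with earlier results of these data known. From the wider lists, 2 genes per list and line were named, those with the largest log2 fold change that passed in 4 comparisons. The authors' own tables of fold changes were not used. Of the lists, 1 is not reported here. Promoter windows came from RefSeq on GRCh38.p14.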

Additional observations from a re-analysis of the deposited data

Results flagged for a closer look

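Effects of the higher CDDP dose on some members differed between groups, and the values are log2 differences by limma. In parental SUM1315 cells the effect with olaparib minus that without was 1.57 (SE 0.20, adjusted p 8.63e-07) for BCL2L1, 0.91 (SE 0.18, adjusted p 0.000324) for MCL1, 0.76 (SE 0.16, adjusted p 0.000766) for BBC3 and 0.66 (SE 0.19, adjusted p 0.0103) for BCL2A1. All 4 were lower with olaparib alone than untreated. In OlaR minus olaparib-treated parental SUM1315 cells it was -1.21 (SE 0.24, adjusted p 0.00155) for BAX and -0.86 (SE 0.20, adjusted p 0.00872) for BCL2L1. In parental MDA-MB-468 cells the difference with minus without olaparib was 0.67 (SE 0.22, adjusted p 0.0239) for PMAIP1 and -0.88 (SE 0.29, adjusted p 0.0227) for BIK, which did not pass in 4 and 3 of 12 fits with a library left out, BIK also not in a fit of only the groups compared. In OlaR minus olaparib-treated parental MDA-MB-468 cells it was -0.64 (SE 0.22, adjusted p 0.042) for PMAIP1 and -1.36 (SE 0.45, adjusted p 0.0307) for BCL2. These did not pass in 7 and 7 of 12 such fits, nor PMAIP1 with a pseudocount of 5 or only the groups compared, nor BCL2 with no filter.

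Between lines, SUM1315 minus MDA-MB-468, the CDDP effect in parental cells differed by -1.37 (SE 0.23, adjusted p 7.29e-06) for BCL2L1, -1.13 (SE 0.15, adjusted p 7.08e-08) for MCL1 and -0.82 (SE 0.26, adjusted p 0.0154) for BBC3. It differed by 0.69 (SE 0.26, adjusted p 0.0433) for BCL2L11 and 0.55 (SE 0.18, adjusted p 0.0163) for PMAIP1, lost in 8 and 1 of 12 fits with a library left out, BCL2L11 also with no filter and with only the groups compared. In OlaR cells the lines differed by -0.96 (SE 0.26, adjusted p 0.021) for BAX and 1.53 (SE 0.45, adjusted p 0.0335) for BCL2, lost in 3 and 7 of 12 such fits, BCL2 also by edgeR, by DESeq2 and with only the groups compared. The cause of these differences was not tested.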

How the results depend on the processing

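Member counts are by limma unless a tool is named, and counts near those of the report are not listed. With a fold change of at least 2 also required, the SUM1315 counts were 0 for lower-dose CDDP added to olaparib, olaparib on top of CDDP and lower-dose CDDP in OlaR; 1 for lower-dose CDDP, higher-dose CDDP added to olaparib, higher-dose CDDP in OlaR, the OlaR minus parental difference and the with minus without olaparib difference; 2 for olaparib against untreated; 4 for OlaR against olaparib-treated parental. In MDA-MB-468 cells they were 0 for olaparib against untreated, lower-dose CDDP, higher-dose CDDP, olaparib on top of CDDP, lower-dose CDDP in OlaR and the with minus without olaparib difference; 1 for higher-dose CDDP added to olaparib, higher-dose CDDP in OlaR and the OlaR minus parental difference. Between lines they were 1 for OlaR cells, 2 for parental cells. No count over all genes is given here for this fold limit, so these counts do not set the members apart from other genes.

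In a fit of only the groups compared, the counts were 0 for lower-dose CDDP added to olaparib, olaparib on top of CDDP and lower-dose CDDP in OlaR; 1 for higher-dose CDDP added to olaparib in SUM1315 and 1 for lower-dose CDDP, higher-dose CDDP added to olaparib, olaparib on top of CDDP, the OlaR minus parental difference and the with minus without olaparib difference in MDA-MB-468 cells, and 1 for OlaR cells between lines. Over all genes, in the same order, 79, 2028, 17 and 850 of 13133 passed in SUM1315 cells. In MDA-MB-468 cells 2326, 2471, 1515, 1817 and 2563 of 13012 passed, and between lines 734 of 14460. With no filter the member counts were 0 for olaparib on top of CDDP, 1 for lower-dose CDDP added to olaparib in SUM1315 and 1 for olaparib on top of CDDP and the OlaR minus parental difference in MDA-MB-468 cells. Over all genes 1375 and 339 of 22224 passed there in SUM1315, and 1277 and 1567 of 21617 in MDA-MB-468 cells. With a pseudocount of 5, the member count was 1 for the OlaR minus parental difference in MDA-MB-468 cells (all genes 1962 of 13012). By edgeR and by DESeq2 the member count between lines was 1 for OlaR cells (all genes 438 and 637 of 14460).

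With each library left out in turn, the counts in SUM1315 cells ranged over 3 to 4 for lower-dose CDDP, 0 to 2 for lower-dose CDDP added to olaparib, 1 to 3 for higher-dose CDDP added to olaparib, 0 to 1 for olaparib on top of CDDP and 4 to 5 for the with minus without olaparib difference. In MDA-MB-468 cells the ranges were 2 to 4 for olaparib against untreated, 1 to 2 for lower-dose CDDP, 0 to 1 for lower-dose CDDP added to olaparib and 1 to 4 for higher-dose CDDP added to olaparib. They were 1 to 2 for olaparib on top of CDDP, 3 to 4 for OlaR against olaparib-treated parental, 0 to 1 for lower-dose CDDP in OlaR, 2 to 3 for higher-dose CDDP in OlaR, 0 to 2 for the OlaR minus parental difference and 0 to 2 for the with minus without olaparib difference. Between lines they were 3 to 5 for parental cells and 0 to 2 for OlaR cells. Other counts were the same in every such fit. All-gene counts of these fits are not given here, so the ranges cannot be set beside those of other genes.

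Some members passed only outside limma on all libraries. By edgeR and by DESeq2 these were BCL2L1 for olaparib against untreated (lower) and BIK for higher-dose CDDP added to olaparib (lower), both in MDA-MB-468 cells. By DESeq2 alone BAX passed for lower-dose CDDP added to olaparib in SUM1315 cells (higher), and with a pseudocount of 5 BBC3 for higher-dose CDDP in OlaR MDA-MB-468 cells (higher). Leaving out a library added 16 calls, for BBC3, BCL2L11, MCL1, BIK and BCL2A1.

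No member call changed direction under any setting. Of 40 member calls in SUM1315 cells, 32 were kept under every setting with all libraries other than the fold limit and 34 in every fit with a library left out. In MDA-MB-468 cells 13 and 11 of 20 were kept, and between lines 5 and 3 of 7. Calls of a line come from comparisons that share libraries. No share of kept calls over all genes is given here, so these counts do not set the members apart from other genes.

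Over all genes, the count for lower-dose CDDP in OlaR SUM1315 cells was 187 by limma, 89 by edgeR and 17 in a fit of only the groups compared. For lower-dose CDDP added to olaparib in SUM1315 cells it was 494, 772 by DESeq2 and 79 with only the groups compared. For lower-dose CDDP in SUM1315 cells it was 4458 and 2914. In MDA-MB-468 cells the count for lower-dose CDDP in OlaR was 619, 372 by edgeR and 286 with only the groups compared, and for lower-dose CDDP added to olaparib 685 and 162. Between lines it was 786 in OlaR cells and 438 by edgeR, and for CDDP added to olaparib 270, 509 by DESeq2 and 151 with only the groups compared. The median log2 fold change over all genes was at most 0.05 from 0 in the main fit and at most 0.11 with no filter. In parental SUM1315 cells the balance of directions turned with no filter: 2357 higher and 3167 lower (filtered 2488 and 2244) for olaparib against untreated, 2417 higher and 2755 lower (filtered 2552 and 1906) for lower-dose CDDP, 2786 higher and 3991 lower (filtered 2916 and 2855) for higher-dose CDDP and 1522 higher and 1347 lower (filtered 1303 and 1524) for the with minus without olaparib difference. It turned by edgeR, by DESeq2 and with only the groups compared for higher-dose CDDP, against untreated and added to olaparib. With only the groups compared it turned for olaparib against untreated and for the OlaR minus parental difference in MDA-MB-468 cells, and between lines for CDDP added to olaparib by DESeq2.

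Replicate numbers did not pair the libraries: deviations from condition means correlated with a median of -0.002 (SUM1315) and -0.005 (MDA-MB-468) between libraries of the same number. With the number as a block, the member count for higher-dose CDDP added to olaparib in MDA-MB-468 cells was 2, as BAX no longer passed.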
